A study of Homo sapiens with 17 samples.

Results

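The 10 autophagy core genes described here are ULK1, BECN1, WIPI1, ATG5, ATG7, MAP1LC3B, GABARAP, GABARAPL1, GABARAPL2 and SQSTM1. They were taken by symbol from a table of 9699 protein-coding genes, each represented by 1 transcript, and all 10 were found. The representative Ensembl transcripts were ENST00000321867 (ULK1), ENST00000361523 (BECN1), ENST00000262139 (WIPI1), ENST00000369076 (ATG5), ENST00000354449 (ATG7), ENST00000268607 (MAP1LC3B), ENST00000302386 (GABARAP), ENST00000421801 (GABARAPL1), ENST00000037243 (GABARAPL2) and ENST00000389805 (SQSTM1). The RNA level (RNA-Seq) and the level of ribosome-protected fragments (Ribo-Seq) were measured in human BJ fibroblasts immortalized with hTERT, in 17 libraries of which 9 were RNA-Seq and 8 Ribo-Seq. The question was how transcription and translation respond to nutrient limitation, to oncogenic RAS and to transformation.

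The proliferating cells were grown under normal conditions, and the quiescent cells were deprived of serum. In the RAS cells a tamoxifen-inducible RASG12V was switched on with 4-OHT-Tamoxifen for 5 days (pre-senescence) or 14 days (senescence). The cells labelled transformed carried hTERT and SV40 small T along with stable knockdowns, p16INK4A-KD among them, and received RASG12V through the retroviral vector pBabe-puro-RASG12V. All cells came from 1 fibroblast line, and the labels do not say whether the proliferating and quiescent cells also carried the inducible construct. The table holds 12 columns of values, 6 for each assay. Of these, 5 pool 2 libraries each (both assays of quiescence and of the proliferating cells of the first run, and the RNA-Seq of day 5), and the other 7 hold 1 library. No condition had replicate columns within a run, so no test was possible, no error can be given for a single value, and every comparison below is a ratio of 1 column to another. Quiescence and day 5 were set against the proliferating cells of the first sequencing run. Day 14 and the cells labelled transformed were set against those of the second run.

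The labels of 2 Ribo-Seq libraries conflicted. The library titled as day 14 had the condition field of proliferation, and the library titled as the second proliferating culture had that of senescence. Titles were followed. MKI67, a marker of dividing cells, was listed at the floor of 1.00 FPKM in the Ribo-Seq column titled day 14 and at 43.0 FPKM in that titled proliferation, against RNA levels of 1.00 and 43.97 FPKM. CCNB1, CDK1, BUB1 and PLK1 were likewise lower in both assays at the titled day 14, CDK1 at 1.65 against 96.7 FPKM in Ribo-Seq. CDKN1A was higher there in both assays, while CDKN2A was higher in RNA and lower in Ribo-Seq. With the titles, Pearson's r across the 9699 genes between the RNA and Ribo-Seq log2 ratios at day 14 was 0.83 (a description across genes, which are not replicates). In the library labelled transformed, CDKN2A, which encodes p16INK4A, stood higher in RNA than in the proliferating cells of the second run, at 12.6 against 6.75 FPKM. This RNA level went against the label, though it lay below the 17.2 FPKM of the proliferating cells of the first run. HRAS stood lower in RNA, at 312 against 1284 FPKM. In Ribo-Seq CDKN2A stood lower, at 5.51 against 8.92 FPKM, as the knockdown in the label would have it, and HRAS stood at 212 against 2058 FPKM. HRAS was already at 2415 FPKM in RNA in the proliferating cells of the first run, against 2102 FPKM at day 5. Whether the proliferating cells carried the inducible construct is not stated, so the lower HRAS cannot be read for or against the label. Of the fibroblast markers 8 of 8 were in the table, with summed RNA levels of 5467 to 7888 FPKM, lowest at day 14. Of the epithelial markers 2 of 4 were measured (summed RNA 103 to 273 FPKM), of the haematopoietic 1 of 3 (at most 1.67 FPKM in RNA and 4.10 FPKM in Ribo-Seq) and of the endothelial 0 of 3. Of the markers of dividing cells 5 of 6 were measured, and their summed RNA level ran from 10.1 FPKM at day 14 to 371 FPKM. In these bulk samples fewer cells of a type and less RNA per cell cannot be told apart.

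Autophagy delivers cytoplasm and organelles to the lysosome. The ULK1 kinase and the lipid kinase complex that holds BECN1 start a membrane, WIPI1 binds the lipid made there, and ATG7 and ATG5 belong to the machinery that couples ATG8 proteins to it. MAP1LC3B, GABARAP, GABARAPL1 and GABARAPL2 are ATG8 proteins, and SQSTM1 (p62) is a receptor that binds both ubiquitinated cargo and ATG8 proteins and is itself degraded with its cargo. Autophagy is known to be switched on by starvation and to accompany senescence induced by RAS. Messenger RNA and ribosome occupancy do not measure the flux through the pathway.

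WIPI1, MAP1LC3B, GABARAPL2 and SQSTM1 were the members that stood at least 1.5-fold higher at day 14 of RAS in both RNA and Ribo-Seq level, and the 100 bases before their annotated starts are shown because these genes moved together. The sequences are those of RefSeq on GRCh38.p14, on the strand of the gene, and capitals mark the only match to a searched motif. SQSTM1 has 3 annotated starts, and which of them the measured transcript uses was not matched.

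MAP1LC3B, chr16:87392236-87392335, plus strand: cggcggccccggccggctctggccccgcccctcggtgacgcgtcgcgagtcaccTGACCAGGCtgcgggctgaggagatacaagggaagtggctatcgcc
GABARAPL2, chr16:75566279-75566378, plus strand: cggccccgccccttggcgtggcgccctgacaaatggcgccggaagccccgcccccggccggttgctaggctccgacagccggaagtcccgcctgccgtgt
WIPI1, chr17:68457497-68457596, minus strand: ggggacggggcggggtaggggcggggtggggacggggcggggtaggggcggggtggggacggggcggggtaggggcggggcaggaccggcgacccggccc
SQSTM1, chr5:179806293-179806392, plus strand: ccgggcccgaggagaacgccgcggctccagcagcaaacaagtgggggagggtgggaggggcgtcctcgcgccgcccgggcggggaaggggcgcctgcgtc
SQSTM1, chr5:179806909-179807008, plus strand: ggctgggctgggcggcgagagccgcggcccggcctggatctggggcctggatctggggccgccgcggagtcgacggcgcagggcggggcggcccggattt
SQSTM1, chr5:179820805-179820904, plus strand: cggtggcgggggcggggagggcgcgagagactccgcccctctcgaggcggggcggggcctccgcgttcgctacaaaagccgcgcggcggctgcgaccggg

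Each of these sequences was rich in G and C, from 73% in MAP1LC3B to 86% in WIPI1. The following 4 letter patterns were searched on both strands from 250 bases before to 50 bases after each start, in 13 windows of the 10 members: CACGTG, bound by TFEB and other E-box factors, TCACGTGA, its extended form that contains it, GTAAACA, bound by FOXO factors, and TGACNNNGC, bound by NRF2. CACGTG was in 0 of the 13 windows and in 7.20% of the 34796 windows of all genes. TCACGTGA was in 0 of the 13 (0.983% of all windows), and GTAAACA in 0 of the 13 (3.42%). TGACNNNGC was in 1 of the 13 windows (13.3% of all), as TGACCAGGC from base -46 to base -38 of MAP1LC3B. A match of letters is a description and not a binding site, and the missing matches say nothing of these factors beyond the windows searched.

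The initiation genes differed from each other in level and in response. WIPI1 was measured in RNA at 12.6 FPKM (fragments per kilobase of transcript, scaled to the number of reads) in the proliferating cells of the first run and 20.8 FPKM in those of the second. It stood at 45.1 FPKM in quiescence, 25.8 FPKM at day 5, 50.3 FPKM at day 14 and 26.9 FPKM in the cells labelled transformed. Quiescence and day 14 were thus the high columns. Its Ribo-Seq level was 3.95 and 11.1 FPKM in the proliferating cells of the first and second run, 20.4 FPKM in quiescence, 10.2 FPKM at day 5, 17.7 FPKM at day 14 and 8.45 FPKM in the cells labelled transformed. Against the proliferating cells of its own run WIPI1 was 3.58-fold higher in RNA in quiescence, 2.05-fold at day 5 and 2.42-fold at day 14. In Ribo-Seq level it was 5.16-fold, 2.59-fold and 1.60-fold higher, the first and second of these on a control under 5 FPKM. Against the proliferating cells of the second run, its log2 ratio in quiescence was 1.12 in place of 1.84 in RNA and 0.88 in place of 2.37 in Ribo-Seq. WIPI1 was the member with the largest ratio in quiescence in both assays, and 99.2% of all genes had a lower RNA ratio there.

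ULK1, the kinase that receives nutrient signals, was one of the least abundant members. Its RNA level was 8.40 and 8.53 FPKM in the proliferating cells of the 2 runs, 12.2 FPKM in quiescence, 6.27 FPKM at day 5, 8.58 FPKM at day 14 and 11.85 FPKM in the cells labelled transformed. Its Ribo-Seq level was 4.22 and 4.29 FPKM in the proliferating cells, 10.1 FPKM in quiescence, 5.26 FPKM at day 5, 3.28 FPKM at day 14 and 3.77 FPKM in the cells labelled transformed. Quiescence was the high column in both assays, with a ratio of 1.45-fold in RNA and 2.38-fold in Ribo-Seq. The second of these rests on a control value under 5 FPKM.

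BECN1 had the next to narrowest RNA range of the members, from 29.5 FPKM in the proliferating cells of the second run to 38.8 FPKM at day 5, and no RNA ratio of BECN1 reached 1.5-fold. The Ribo-Seq level of BECN1 was 20.6 and 15.6 FPKM in the proliferating cells of the first and second run, 11.5 FPKM in quiescence, 21.65 FPKM at day 5, 14.9 FPKM at day 14 and 12.1 FPKM in the cells labelled transformed. The quiescent value was 1.80-fold below its control while RNA was at 31.6 against 32.5 FPKM.

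Of the conjugation genes, ATG5 had the narrowest RNA range of all members, 11.25 FPKM in quiescence to 14.05 FPKM at day 5, and no ratio of its RNA or Ribo-Seq level reached 1.5-fold. Its Ribo-Seq level ran from 9.50 FPKM at day 5 to 22.85 FPKM in the cells labelled transformed. ATG7, the enzyme that activates ATG8 proteins, was between 10.7 and 13.8 FPKM in RNA in 5 of the 6 columns and at 18.3 FPKM in the cells labelled transformed. Its Ribo-Seq level was between 17.6 and 22.5 FPKM in the same 5 columns and 29.8 FPKM in the cells labelled transformed. ATG7 was the only member at least 1.5-fold higher in the cells labelled transformed, by 1.71-fold in RNA and 1.70-fold in Ribo-Seq.

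**Figure D1:**
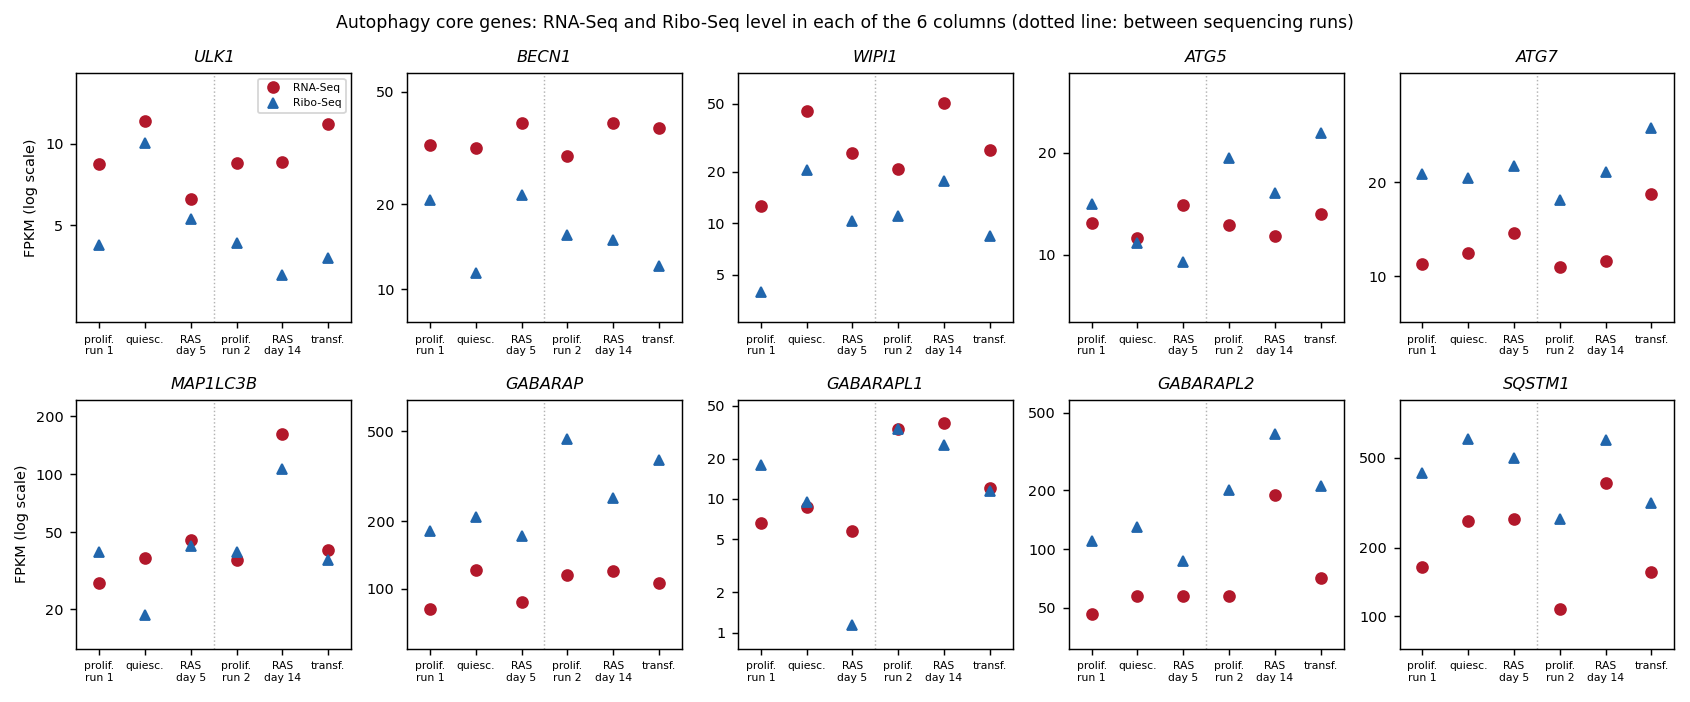
RNA-Seq (circles) and Ribo-Seq (triangles) level of each autophagy core gene in FPKM on a log axis, in the proliferating cells of the first run, quiescence, day 5 of RAS, the proliferating cells of the second run, day 14 of RAS and the cells labelled transformed. Each point is 1 column of the table, with no error bar because no replicate columns exist. The RNA level of MAP1LC3B stands at 163 FPKM at day 14 and at 27.45 to 45.6 FPKM in the other columns, while GABARAPL1 stands at 1.14 FPKM in Ribo-Seq at day 5.

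The 4 ATG8 genes did not move as a group. MAP1LC3B was measured in RNA at 27.45 and 36.2 FPKM in the proliferating cells of the first and second run. It was at 36.7 FPKM in quiescence, 45.6 FPKM at day 5, 163 FPKM at day 14 and 40.4 FPKM in the cells labelled transformed. Day 14 stood apart from every other column, 4.50-fold above its control, and 99.1% of all genes had a lower RNA ratio in that comparison. Its Ribo-Seq level was 39.7 FPKM in the proliferating cells of either run, 18.8 FPKM in quiescence, 42.5 FPKM at day 5, 106 FPKM at day 14 and 36.1 FPKM in the cells labelled transformed. In quiescence the Ribo-Seq level was 2.12-fold below its control although RNA was 1.34-fold above it.

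GABARAPL2 was at 46.5 and 57.4 FPKM in RNA in the proliferating cells of the first and second run, 57.8 FPKM in quiescence, 57.3 FPKM at day 5, 189 FPKM at day 14 and 71.1 FPKM in the cells labelled transformed. In Ribo-Seq GABARAPL2 was at 111 and 202 FPKM in the proliferating cells, 129.5 FPKM in quiescence, 87.0 FPKM at day 5, 389.98 FPKM at day 14 and 211 FPKM in the cells labelled transformed. As for MAP1LC3B, day 14 was the highest column in both assays, at 3.29-fold in RNA and 1.93-fold in Ribo-Seq.

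GABARAP, the founding member of its subfamily, stayed between 81.6 and 122 FPKM in RNA, and its largest RNA ratio, in quiescence, was 1.49-fold. In Ribo-Seq the level of GABARAP was 179.9 and 461 FPKM in the proliferating cells of the first and second run, 209 FPKM in quiescence, 172 FPKM at day 5, 253 FPKM at day 14 and 373 FPKM in the cells labelled transformed. In Ribo-Seq level the 2 proliferating columns thus differed by more than any condition differed from its own control. At day 14 the Ribo-Seq level was 1.82-fold below that of the second run and lay above that of the first.

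GABARAPL1 differed most between the runs in RNA. Its RNA level was 6.63 FPKM in the proliferating cells of the first run and 33.3 FPKM in those of the second, 8.76 FPKM in quiescence, 5.76 FPKM at day 5, 37.0 FPKM at day 14 and 12.2 FPKM in the cells labelled transformed. Its Ribo-Seq level was 18.1 and 33.3 FPKM in the proliferating cells, 9.48 FPKM in quiescence, 1.14 FPKM at day 5, 25.4 FPKM at day 14 and 11.4 FPKM in the cells labelled transformed. The transformed cells were 2.73-fold below their control in RNA and 2.92-fold in Ribo-Seq, yet their RNA level was above that of the proliferating cells of the first run. The day 5 Ribo-Seq value lay next to the floor of 1 FPKM, so the size of its ratio to the control (15.9-fold lower) rests on very low signal in 1 library. MAP1LC3B and GABARAPL1 each have a near-identical copy in the genome (MAP1LC3B2 and GABARAPL3), and since only uniquely mapped reads were kept their levels are uncertain in that respect.

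SQSTM1, the cargo receptor, had the highest RNA level of the members in 5 of the 6 columns. It was at 165 and 108 FPKM in RNA in the proliferating cells of the first and second run, 265 FPKM in quiescence, 269.8 FPKM at day 5, 388 FPKM at day 14 and 157 FPKM in the cells labelled transformed. In Ribo-Seq SQSTM1 was at 427 and 268 FPKM in the proliferating cells, 604 FPKM in quiescence, 499 FPKM at day 5, 602 FPKM at day 14 and 315 FPKM in the cells labelled transformed. Quiescence, day 5 and day 14 were above their controls, by 1.60-fold in RNA in quiescence, 1.63-fold at day 5 and 3.60-fold at day 14. In Ribo-Seq the ratio passed 1.5-fold only at day 14, at 2.25-fold, since quiescence was 1.41-fold and day 5 was 1.17-fold above control. SQSTM1 was lower in the proliferating cells of the second run than in those of the first, and against the first run the day 14 log2 ratio was 1.23 in RNA and 0.49 in Ribo-Seq, in place of 1.85 and 1.17.

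The gap between the proliferating cells of the 2 runs is the nearest measure of error that the table gives, and it holds the difference between runs, between sequencing layouts and between cultures together. It is 1 difference per gene and shares a control column with each ratio set against it. Where the 2 columns lie close, a ratio exceeds the gap almost regardless of its error. The Ribo-Seq gap of MAP1LC3B, for example, was -0.0015 on the log2 scale. In RNA the members' log2 ratio of the second to the first run ran from -0.62 for SQSTM1 to 2.33 for GABARAPL1, and 99.3% of all genes had a lower ratio than GABARAPL1. The members past 1.5-fold between the 2 proliferating columns were WIPI1 and GABARAPL1 (higher) and SQSTM1 (lower) in RNA. In Ribo-Seq they were WIPI1, GABARAP, GABARAPL1 and GABARAPL2 (higher) and SQSTM1 (lower). The share of all genes past 1.5-fold between the runs is not given, so these counts are a description only. Of all genes 12.7% had a lower RNA ratio than SQSTM1 and 16.9% a lower Ribo-Seq ratio. On the higher side 91.0% had a lower RNA ratio than WIPI1, and 87.1% a lower Ribo-Seq ratio than GABARAPL2. ULK1, BECN1, ATG5, ATG7 and MAP1LC3B did not pass 1.5-fold between the runs in either assay.

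In quiescence, a reversible arrest, 2 of the 10 members were at least 1.5-fold higher in RNA (WIPI1 and SQSTM1) and 0 were lower, where 10.7% of all genes were higher and 8.73% lower. The median RNA log2 ratio was 0.41 over the members and 0.00 over all genes. In Ribo-Seq level 2 members were higher (ULK1 and WIPI1; 18.7% of all genes) and 3 lower (BECN1, MAP1LC3B and GABARAPL1; 22.1%), with medians of 0.09 and -0.05. The shares in Ribo-Seq lay near those of all genes. Each of these 7 ratios was larger than the gap of the same gene between the 2 proliferating columns.

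At day 5 of RAS, 3 members were higher in RNA (WIPI1, MAP1LC3B and SQSTM1; 5.65% of all genes) and 0 lower (6.64%). The median RNA log2 ratio was 0.28 over the members and 0.02 over all genes. In Ribo-Seq level 1 was higher (WIPI1; 15.9%) and 1 lower (GABARAPL1; 22.8%). The RNA ratios of all 3 genes exceeded their own gap between the runs, but the Ribo-Seq ratio of WIPI1, 1.37 on the log2 scale, did not exceed its gap of 1.49. Quiescence and day 5 share their control columns, so their ratios are not independent of each other.

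At day 14 of RAS, 4 members were higher in RNA (WIPI1, MAP1LC3B, GABARAPL2 and SQSTM1; 18.5% of all genes) and 0 lower (22.4%). In Ribo-Seq level the same 4 were higher (20.7%) and GABARAP was lower (29%). These 4 had RNA log2 ratios of 1.28 (WIPI1), 2.17 (MAP1LC3B), 1.72 (GABARAPL2) and 1.85 (SQSTM1), while the other 6 lay between -0.11 and 0.39. So the members split into those far above control and those close to it, and the median over all 10, 0.27 against -0.00 for all genes, describes neither. In Ribo-Seq level the medians were 0.12 and -0.10. Each of the 4 RNA ratios exceeded the gap of its gene between the runs, and so did the Ribo-Seq ratios of MAP1LC3B, GABARAPL2 and SQSTM1, but not that of WIPI1. With a cut-off that follows the spread of the 500 genes nearest in level, MAP1LC3B, GABARAPL2 and SQSTM1 passed in RNA and 0 members in Ribo-Seq level. The Ribo-Seq directions at day 14 rest on the titles of the 2 libraries whose labels conflict.

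In the library labelled transformed, 1 member was higher in RNA (ATG7; 13.1% of all genes) and 1 lower (GABARAPL1; 11.5%), and the same genes were higher (13.5%) and lower (15.6%) in Ribo-Seq level. Their ratios were alike in both assays, at 0.78 and 0.76 on the log2 scale for ATG7 and -1.45 and -1.55 for GABARAPL1. CDKN2A in RNA, but not in Ribo-Seq, went against the label relative to the second-run control. Relative to the first-run control it did not. HRAS was below its control in both assays, which cannot be read for or against the label. The directions given here are those of the libraries as labelled. The ATG7 ratios and the Ribo-Seq ratio of GABARAPL1 exceeded the gap between the runs, and the RNA ratio of GABARAPL1 did not. Day 14 and the cells labelled transformed share their control columns. Set side by side, MAP1LC3B stood at 163 FPKM at day 14 and 40.4 FPKM in the cells labelled transformed, GABARAPL1 at 37.0 and 12.2 FPKM, GABARAPL2 at 189 and 71.1 FPKM, and SQSTM1 at 388 and 157 FPKM in RNA. In each of these 4 genes day 14 was the higher of the columns, also in Ribo-Seq level. With WIPI1 they were the 5 of 10 members at least 1.5-fold higher at day 14 in both assays. At least 1.5-fold lower at day 14 were ATG7 in RNA and ATG5 in Ribo-Seq. Their log2 ratios of day 14 to the cells labelled transformed were -0.71 and -0.59. The share of all genes past the fold is not given for this comparison, so these counts are a description only. In Ribo-Seq 85.1% of all genes had a lower ratio than GABARAPL2, and 29.7% a lower one than ATG5, which lay just past the fold. In RNA 90.1% had a lower ratio than WIPI1 and 22.4% a lower one than ATG7.

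**Figure D2:**
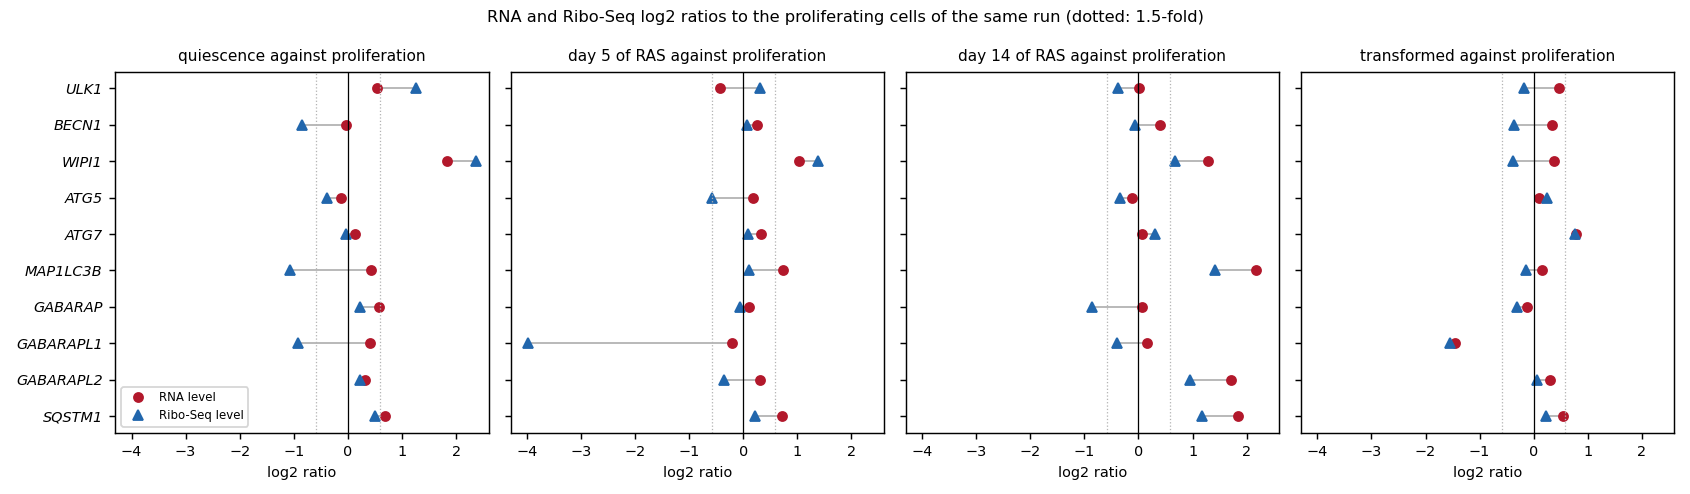
Log2 ratio of RNA (circles) and Ribo-Seq level (triangles) of each autophagy core gene to the proliferating cells of the same run, in quiescence, at day 5 and day 14 of RAS and in the cells labelled transformed. Grey lines join both assays of a gene, and dotted lines mark 1.5-fold. At day 14 WIPI1, MAP1LC3B, GABARAPL2 and SQSTM1 lie beyond 1.5-fold in both assays with the triangle left of the circle, while the other members' circles lie between -0.11 and 0.39.

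Translation efficiency (TE), the log2 Ribo-Seq level minus the log2 RNA level, was next compared with the proliferating cells of the same run. A TE ratio holds the RNA ratio with a minus sign, so an error in RNA moves both in opposite directions. In quiescence 1 member was at least 1.5-fold higher in TE (ULK1, 0.72; 11.5% of all genes) and 3 were lower (13.8%): BECN1 at -0.81, GABARAPL1 at -1.33 and MAP1LC3B at -1.50. For MAP1LC3B, 1.03% of all genes had a lower TE ratio. The value of GABARAPL1 was smaller than its gap of -1.44 between the runs, and the other 3 exceeded theirs, ULK1 with a gap of only 0.0016. The median TE ratio was -0.21 over the members and -0.05 over all genes.

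At day 5, ULK1 was higher in TE (0.74; 14.2% of all genes) and 4 members were lower (22.5%): ATG5 at -0.76, MAP1LC3B at -0.63, GABARAPL2 at -0.65 and GABARAPL1 at -3.78. All 5 exceeded their gap between the runs, but that of ULK1 was only 0.0016. With the cut-off that follows the spread of the genes nearest in level, only GABARAPL1 passed in TE at day 5. The value of GABARAPL1 rests on the Ribo-Seq level next to the floor. At day 14, 0 members were higher (13.8%) and 5 were lower (17.6%), namely WIPI1 at -0.60, MAP1LC3B at -0.75, GABARAP at -0.93, GABARAPL2 at -0.77 and SQSTM1 at -0.68. Of the 10 members 9 had a TE ratio below 0 at day 14, with ATG7 at 0.23 the exception. The median was -0.57 against -0.03 for all genes, so over all genes too more lay below 0 than above it. The 4 genes with the high RNA ratios were among the 5, so their Ribo-Seq level stood above control by less than their RNA. The value of WIPI1 was smaller than its gap of 0.77 between the runs, and the other 4 exceeded theirs. Against the proliferating cells of the first run, however, GABARAP was at -0.07, GABARAPL2 at -0.21 and WIPI1 at 0.17, all short of 1.5-fold. MAP1LC3B at -1.15 and SQSTM1 at -0.74 stayed past it. In the cells labelled transformed 0 members were higher in TE (5.17%) and 3 were lower (10.6%), the initiation genes ULK1 at -0.66, BECN1 at -0.70 and WIPI1 at -0.76. That of WIPI1 was smaller than its gap between the runs.

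**Figure D3:**
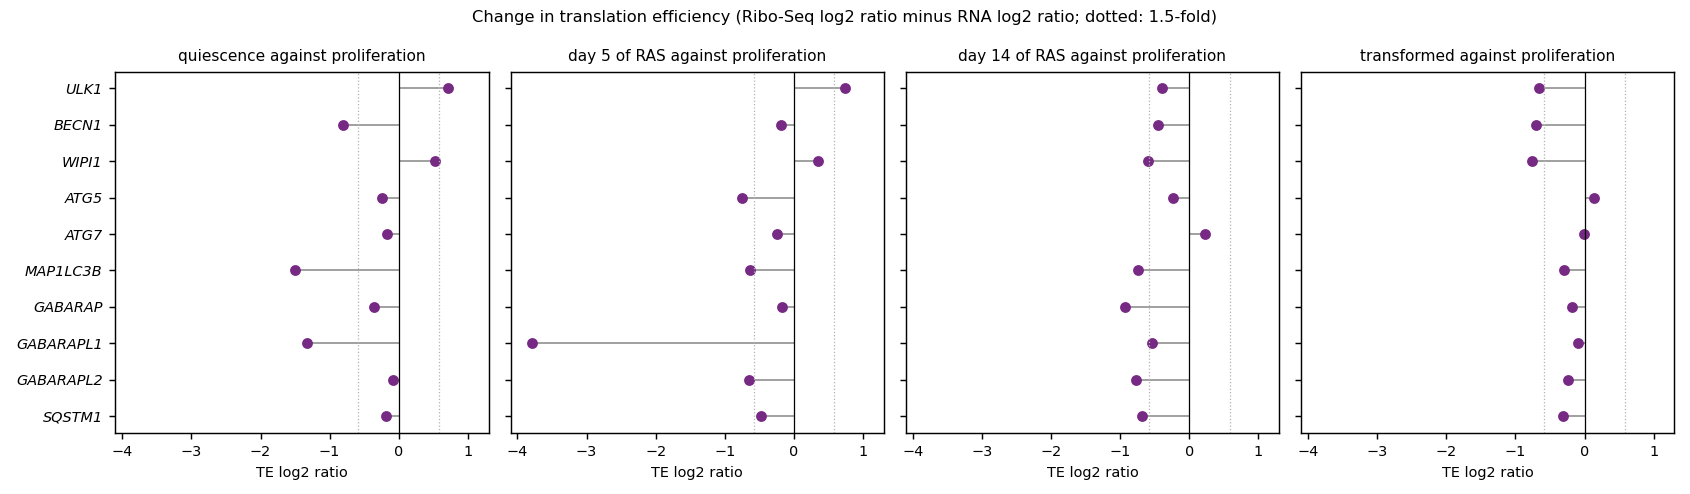
Log2 ratio of translation efficiency (Ribo-Seq log2 ratio minus RNA log2 ratio) of each autophagy core gene to the proliferating cells of the same run, with dotted lines at 1.5-fold. The points lie left of 0 for 9 of 10 genes at day 14 and in the cells labelled transformed, where the medians of all genes were -0.03 and -0.07. GABARAPL1 stands at -3.78 at day 5.

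As a level, TE kept its sign in all 6 columns for 7 of the 10 members. RNA-Seq counted the whole transcript and Ribo-Seq the coding sequence, so TE levels are not strictly comparable between genes. The 0 of TE also depends on the scaling of each assay. In the proliferating cells of the first run the summed FPKM was 384990 in RNA-Seq and 745281 in Ribo-Seq. The sign of a TE level is therefore a description of this table only. ATG7, GABARAP, GABARAPL2 and SQSTM1 had a TE above 0 in all 6 columns, and ULK1, BECN1 and WIPI1 one below 0 in all 6. WIPI1 for example ran from -1.67 to -0.91 and GABARAP from 0.78 to 2.00. The other 3 crossed 0, MAP1LC3B from -0.97 in quiescence to 0.53 in the proliferating cells of the first run, ATG5 from -0.56 to 0.79, and GABARAPL1 from -2.34 at day 5 to 1.45 in the proliferating cells of the first run.

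Beyond the members, 65 further genes of the pathway were listed by role, and 56 were in the table. At day 14, 17 of the 56 were at least 1.5-fold higher in RNA and 0 lower, and 21 were higher and 2 lower in Ribo-Seq level, with 12 higher in both. In RNA these were 30.4% higher against 18.5% of all genes and 0 lower against 22.4%, and in Ribo-Seq 37.5% higher against 20.7% and 3.57% lower against 29%. Their median RNA log2 ratio was 0.41 against -0.00 for all genes. The share of all genes past the fold in both assays was not computed, here or for the conditions below. Over all genes the RNA and Ribo-Seq ratios went together at day 14 (Pearson's r of 0.83), so the counts in both assays are a description only. The fusion genes, which join the autophagosome to the lysosome, held 5 of 9 higher in RNA (SNAP29, EPG5, PLEKHM1, VPS33A and VPS41). The 3 furthest up in RNA among those higher in both assays were OPTN, PLEKHM1 and ATG4A. OPTN, a receptor like SQSTM1, went from 39.2 FPKM in the proliferating cells to 99.0 FPKM in RNA and from 70.8 to 149 FPKM in Ribo-Seq. PLEKHM1, a tether at the lysosome, went from 10.3 to 26.0 FPKM in RNA and from 4.68 to 11.2 FPKM in Ribo-Seq. ATG4A, a protease that trims ATG8 proteins, went from 9.05 to 20.9 FPKM and from 6.44 to 11.7 FPKM.

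In quiescence 8 of the 56 were higher in RNA and 0 lower, and 12 were higher and 6 lower in Ribo-Seq level, 7 of them higher in both. DDIT4, an mTOR inhibitor, stood at 69.1 against 29.6 FPKM in RNA and at 99.3 against 32.45 FPKM in Ribo-Seq. OPTN stood at 42.5 against 21.45 FPKM in RNA, and WDR45, a relative of WIPI1, at 19.3 against 10.1 FPKM. In Ribo-Seq level OPTN was 2.00-fold and WDR45 2.70-fold higher. In the proliferating cells of the second run OPTN stood at 39.2 FPKM in RNA and 70.8 FPKM in Ribo-Seq, near its quiescent levels. WDR45 stood there at 14.9 and 12.3 FPKM, and DDIT4 at 8.99 and 14.2 FPKM, below its first-run control. In RNA the share higher was 14.3% against 10.7% of all genes and the share lower 0 against 8.73%. In Ribo-Seq it was 21.4% against 18.7% higher and 10.7% against 22.1% lower, so the shares higher lay near those of all genes.

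At day 5, 3 of the 56 were higher and 4 lower in RNA, and 8 higher and 11 lower in Ribo-Seq level. These shares lay near those of all genes, at 5.36% higher and 7.14% lower in RNA (5.65% and 6.64% of all genes) and 14.3% and 19.6% in Ribo-Seq (15.9% and 22.8%). PLEKHM1 was the 1 gene higher in both, at 21.6 against 11.8 FPKM in RNA. The 3 lower in both were TFEB, a master regulator of lysosomal genes (1.91 against 3.47 FPKM in RNA), MAP1LC3A, the paralog of MAP1LC3B (3.37 against 5.77 FPKM), and DDIT4 (17.7 against 29.6 FPKM). In the proliferating cells of the second run these stood at 3.2, 11.3 and 8.99 FPKM in RNA. DDIT4 thus stood below its day 5 level there. MAP1LC3A, like GABARAPL1, was near the floor in the day 5 Ribo-Seq library, at 1.77 against 13.1 FPKM.

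In the cells labelled transformed 6 of the 56 were higher and 8 lower in RNA, and 6 higher and 12 lower in Ribo-Seq level. The shares were 10.7% higher and 14.3% lower in RNA (13.1% and 11.5% of all genes) and 10.7% and 21.4% in Ribo-Seq (13.5% and 15.6%). Of the 11 regulators 5 were lower in RNA and 8 in Ribo-Seq, where 11.5% and 15.6% of all genes were lower. The 3 furthest down among the 6 lower in both were DRAM1, SESN1 and TP53INP1. DRAM1 stood at 24.3 against 61.5 FPKM in RNA and 34.6 against 97.8 FPKM in Ribo-Seq. SESN1 stood at 2.18 against 5.15 FPKM in RNA, and TP53INP1 at 1.59 against 3.41 FPKM, both near the floor of 1 FPKM. In the proliferating cells of the first run RNA was at 37.8 FPKM for DRAM1, 2.49 FPKM for SESN1 and 1.37 FPKM for TP53INP1. Against that control TP53INP1 was not lower and SESN1 was close to it. The counts of regulators are given for the control of the second run only. The 3 furthest up of the 4 higher in both were ATG4D (9.36 against 5.83 FPKM in RNA), UVRAG (9.33 against 5.82 FPKM) and VMP1 (67.4 against 42.8 FPKM). In Ribo-Seq ATG4D stood at only 2.47 against 1.43 FPKM, UVRAG at 8.97 against 4.51 FPKM and VMP1 at 175 against 94.2 FPKM. TE over the wider list gave 1 higher and 6 lower in quiescence, or 1.79% and 10.7% against 11.5% and 13.8% of all genes. At day 5 it gave 6 and 13, or 10.7% and 23.2% against 14.2% and 22.5%, and at day 14 it gave 4 and 7, or 7.14% and 12.5% against 13.8% and 17.6%. In the cells labelled transformed it gave 2 and 6, or 3.57% and 10.7% against 5.17% and 10.6%.

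For the 3 members whose RNA ratios ranged most widely, the genes with the most similar pattern were sought by Pearson's r over the 8 log2 ratios (4 in RNA and 4 in Ribo-Seq), among the genes with at least 5 FPKM in every column. The ratios share control columns and r is given as a description. For MAP1LC3B these were TRIM32, C12orf5 and PEA15, each with r of 0.97, and 98 of 5542 genes had an r above 0.9. For GABARAPL1 they were TCEAL1 (0.98), RAB6A (0.97) and FLYWCH1 (0.96), and 33 of 5543 genes lay above 0.9. For WIPI1 they were GSTT1 (0.99), CYB5D2 (0.98) and MVP (0.97), with 52 of 5543 genes above 0.9. None of these 9 genes was on the pathway lists.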

How the data were processed

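RNA-Seq and Ribo-Seq libraries of BJ fibroblasts were sequenced in 2 runs. The authors aligned reads with Bowtie to 1 protein-coding transcript per gene (the labels name the build hg19), kept uniquely mapped reads, and deposited FPKM values over the whole transcript for RNA-Seq and over the coding sequence for Ribo-Seq, with values below 1 set to 1. The table gives no counts per gene. The read totals that the study lists for each library were not used here, since they do not give the reads behind a value, and no counting interval is given. Of the 12 columns, 5 pool 2 libraries each. How the libraries were pooled is not given in the sources used here. Columns were matched to samples by title, and the runs are those of the study's methods.

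Each condition was divided by the proliferating cells of its own run. A gene was counted as higher or lower past 1.5-fold (0.58 on the log2 scale), the translation efficiency was log2 Ribo-Seq minus log2 RNA, and counts over the members were read against the share of all 9699 genes past the same fold. With 1 column per condition no test was run. The members, the pathway lists and the marker lists were chosen with earlier results of these data known. Named are all members, the 3 genes of the wider lists furthest up and down in RNA among those past the fold in both assays, and the 3 genes most like each of the 3 members with the widest RNA range. A gene named in the closing section outside this rule was chosen after its values were seen.

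Alternatives were a pseudocount of 1 FPKM, a minimum of 5 FPKM in both columns, subtraction of the median of all genes, the control of the other run, a cut-off that follows the spread of the 500 genes nearest in level, and, added after seeing the data for single members, the exchange of the conflicting Ribo-Seq libraries. The scripts were tested on simulated data and used Python 3.11.15, numpy 2.4.6, pandas 2.3.3 and matplotlib 3.10.9. Promoter sequences came from RefSeq (GRCh38.p14), where all 10 members had an entry. Protein sequences were not used here. A further knockdown of the transformed cells is not reported here.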

Additional observations from a re-analysis of the deposited data

How the results depend on the processing

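No paired analysis was possible because the table pools replicates into 1 column per condition and run, which also means that no library could be left out. With a pseudocount of 1 FPKM all 12 counts of members past the fold stayed within 1.5 times, and with the median of all genes subtracted 11 of 12 did (TE at day 5, 5 members to 3). With both values at least 5 FPKM, quiescence went from 5 to 3 in Ribo-Seq and day 5 from 2 to 0 in Ribo-Seq and from 5 to 3 in TE, because WIPI1, ULK1 and, at day 5, GABARAPL1 were left out. Under a cut-off of local SDs, quiescence went from 2 to 1 in RNA, 5 to 1 in Ribo-Seq and 4 to 2 in TE. Day 5 went from 2 to 1 in Ribo-Seq and 5 to 1 in TE, day 14 from 5 to 0 in both, and the transformed library from 2 to 1 in RNA and Ribo-Seq and 3 to 0 in TE. The shares of all genes past it were 6.09% to 8.51%, and at day 14 it kept MAP1LC3B, GABARAPL2 and SQSTM1 in RNA.

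The control of the other run moved Ribo-Seq counts from 5 to 8 in quiescence, 2 to 5 at day 5 and 5 to 3 at day 14, and the transformed counts from 2 to 4 in RNA, 2 to 6 in Ribo-Seq and 3 to 6 in TE. With it the log2 ratio changed sign in 22 of the 78 member ratios short of 1.5-fold and in 6 of the 42 past it, which were those for GABARAPL1 in quiescent TE (0.11) and transformed RNA (0.88), for WIPI1 in day 5 Ribo-Seq (-0.11), day 14 TE (0.17) and transformed TE (0.0029), and for GABARAP in day 14 Ribo-Seq (0.49). Run and culture cannot be told apart. Exchanging the 2 conflicting Ribo-Seq libraries turned the day 14 Ribo-Seq log2 ratios by construction, to -0.68 for WIPI1, -1.42 for MAP1LC3B, 0.87 for GABARAP, -0.95 for GABARAPL2 and -1.17 for SQSTM1, and the TE ratio of GABARAP to 0.81. The other TE ratios past the fold at day 14 moved to -1.95 for WIPI1, -3.59 for MAP1LC3B, -2.66 for GABARAPL2 and -3.02 for SQSTM1. It also moved the transformed counts from 2 to 6 in Ribo-Seq and from 3 to 6 in TE. The share of all genes past the fold is given for no alternative except the cut-off of local SDs. The counts of members under the other control and under the exchange therefore cannot be read against it.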

Other observations

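Among the wider genes, MITF, a relative of TFEB, had the RNA levels 4.43 and 8.35 FPKM in the proliferating cells of the first and second run, 4.23 FPKM in quiescence, 4.65 FPKM at day 5, 17.1 FPKM at day 14 and 4.06 FPKM in the library labelled transformed. TFEB itself was between 1.91 and 5.05 FPKM in RNA in all 6 columns, with the highest value in quiescence. VMP1, which moves lipids at the endoplasmic reticulum, stood at 42.9 and 42.8 FPKM in RNA in the proliferating cells, 44.8 FPKM in quiescence, 52.5 FPKM at day 5, 90.8 FPKM at day 14 and 67.4 FPKM in the library labelled transformed. The mitophagy receptors BNIP3 and BNIP3L were both highest in RNA at an arrest, BNIP3 in quiescence (144 FPKM) and BNIP3L at day 14 (103 FPKM). These genes were chosen after their values were seen.

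In the day 5 Ribo-Seq library, ATG4A and MITF were listed at the floor of 1 FPKM while their RNA levels were 9.73 and 4.65 FPKM, and TP53INP2 and MAP1LC3A were both at 1.77 FPKM. With GABARAPL1 at 1.14 FPKM, these are pathway genes whose Ribo-Seq value in that library was below that in every other Ribo-Seq column. Over all genes, 454 were at the floor in that library, against 465 in the proliferating and 281 in the quiescent Ribo-Seq column of the same run. The part of the library's depth in these values was not tested.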
